A study of Saccharomyces cerevisiae with 5 samples.

Results

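The 3 arrays described here each compared Pool A, a pool of yeast deletion strains, with itself in the 2 dyes, out of 5 arrays in the series. They were taken as the arrays whose Cy3 and Cy5 channels are both labelled Pool A, and both channels were genomic DNA of Saccharomyces cerevisiae. The other 2 arrays, used here only for comparison, held Pool B in both channels (1 array) and Pool A in Cy3 against Pool B in Cy5 (1 array). All pools consisted of heterozygous knockout strains that had been grown on YPD agar, combined and frozen in glycerol. Per the labels, 94 strains were present at unequal amounts in the 2 pools and the remaining strains at equal amounts. The UPTAGs had a PCR of their own, as had the DNTAGs, run for 50 cycles in a volume of 20 µl with a template of about 50 ng, and a primer carried the dye. The labels do not say whether the 3 Pool A arrays came from separate DNA preparations, so p-values measure only how far these arrays spread, and that spread may be technical. No array with exchanged dyes was analysed here.

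In this collection the coding region of a gene is replaced by a cassette that carries a short barcode on each side, the UPTAG and the DNTAG, and each pair of barcodes belongs to a single strain. Common primer sites flank the barcodes, so the barcodes of a whole pool can be amplified together and read on an array of complementary probes. Because the strains are heterozygous, they include deletions of essential genes. When both dyes carry the same pool, a strain is present in equal amount in both channels, and a ratio away from 0 on the log2 scale is not a difference in the amount of that strain. Such arrays therefore show which tags carry a ratio of their own.

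The values are log2 ratios of the 2 channels for 22575 spots, of which 18794 had a gene name. The named spots formed 2 tag blocks of 9397 spots, each gene having equivalent places in both. They gave 5444 tag sets from 5325 genes, each with a first tag and a second tag, and 105 genes had more than 1 tag set. For 12 of these genes 1 tag set is a run of 5 spots that may be a second printing of another set of that gene, so these sets may not be separate strains. Which block holds the UPTAGs is not given in the sources used here. A tag set is called a strain below, and its ratio is the mean of its 2 tags. The direction of the ratio is likewise not given, so positive and negative are the signs of the deposited values and neither dye is named as the brighter. The named spots had medians of -0.33, 0.07 and 0.03 on replicates 1, 2 and 3, and each array was centred on its own median. Strain ratios had a Pearson correlation over 5444 strains of 0.80 between replicates 1 and 2, 0.79 between replicates 1 and 3, and 0.90 between replicates 2 and 3. These correlations describe strains that share the same tags and probes on every array.

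Of 5444 strains, 2443 (44.9%) differed from 0 over the 3 arrays in limma's moderated test at a Benjamini-Hochberg adjusted p under 0.05. Positive ratios were called for 1321 strains (24.3%) and negative ratios for 1122 (20.6%). Most of these ratios were small. The middle of the strain distribution ran from -0.19 to 0.23 between its lower and upper quartiles, the median size of a called ratio was 0.40, and the smallest called size was 0.23. A mean of at least 1, was found for 82 strains, and a mean of -1 or lower for 10. The median SD over the 3 arrays was 0.15. The test drew most of its information on spread from all strains together, with 23.8 prior degrees of freedom beside the few that 3 arrays give. An exact sign-flip test on a single strain could not go below p = 0.25 with 3 arrays. The counts moved with the arrays and the centring: without replicate 2 there were 877 positive strains, without replicate 3 there were 585 negative strains, and without centring there were 432 positive and 402 negative.

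Among the called strains whose 2 tag means and 3 array values all had the sign of the strain mean (1553 strains), the 12 with the most positive mean ranged from 1.64 to 2.08. The strain deleted for YLL056C, a gene without a standard name, gave 1.87, 2.06 and 2.29 on replicates 1, 2 and 3. Next to it in spot number and on chromosome XII, the strain deleted for YCT1, which encodes a cysteine transporter, gave 1.77, 2.10 and 2.27. All 6 values lay far above the upper quartile of all strains, which follows from the choice of the most positive strains. The PDE1 strain, which lacks a copy of a cyclic AMP phosphodiesterase gene, gave 2.08, 2.07 and 1.97, with an SD of 0.06. The strain for UBX2, a membrane adaptor of Cdc48 in the degradation of endoplasmic reticulum proteins, gave 1.86, 1.72 and 2.14. The strain for IMD3, an IMP dehydrogenase of guanine nucleotide synthesis, gave 1.67, 1.71 and 2.19. For these strains the 3 replicates lay close together relative to their distance from 0. The remaining members were YLF2 (1.90), YRO2 (1.84), a relative of the membrane heat-shock protein Hsp30, COX17 (1.72), a copper chaperone for cytochrome c oxidase, and CNA1 (1.69), a catalytic subunit of calcineurin. They also included DIF1 (1.68), which acts in nuclear import of ribonucleotide reductase subunits, CPR6 (1.67), a cyclophilin that binds Hsp90, and CHS2 (1.64), the chitin synthase of the primary septum. Adjusted p-values of the 12 from limma ran from 1.17e-14 to 1.56e-12. Of the 12 strains, 7 were on chromosome XII, which holds 460 of the 5444 strains.

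The 12 most negative strains by the same rule ranged from -2.36 to -0.88, and only NUD1 was below -2. The NUD1 strain, deleted for a scaffold of the mitotic exit network at the spindle pole body, gave -2.42, -2.19 and -2.47. The MAL31 strain, deleted for a maltose permease, gave -1.27, -1.12 and -1.64. The AIM2 strain gave -1.12, -1.26 and -1.58. Each of these 3 strains was lowest on replicate 3. The YGR026W strain, whose gene has no standard name, gave -1.30, -1.02 and -1.51, and the AMF1 strain, deleted for an ammonium transporter, gave -0.91, -0.96 and -1.55. The strain for DIT2, which acts in the synthesis of dityrosine for the spore wall, gave -0.92, -1.04 and -1.18. The others were FSH3 (-1.02), a serine hydrolase, HEM4 (-0.71, -0.86 and -1.44), the uroporphyrinogen III synthase of heme synthesis, and PTP1 (-0.98), a protein tyrosine phosphatase. CIK1 tag set 3 (-0.92), for a partner of the kinesin Kar3, ERP2 (-0.90), for a member of the p24 family of the early secretory pathway, and YBR096W (-0.88) completed them. None of the 12 was on chromosome XII, which holds only 460 of the 5444 strains. Adjusted p-values from limma ran from 1.29e-15 to 1.85e-06.

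**Figure D1:**
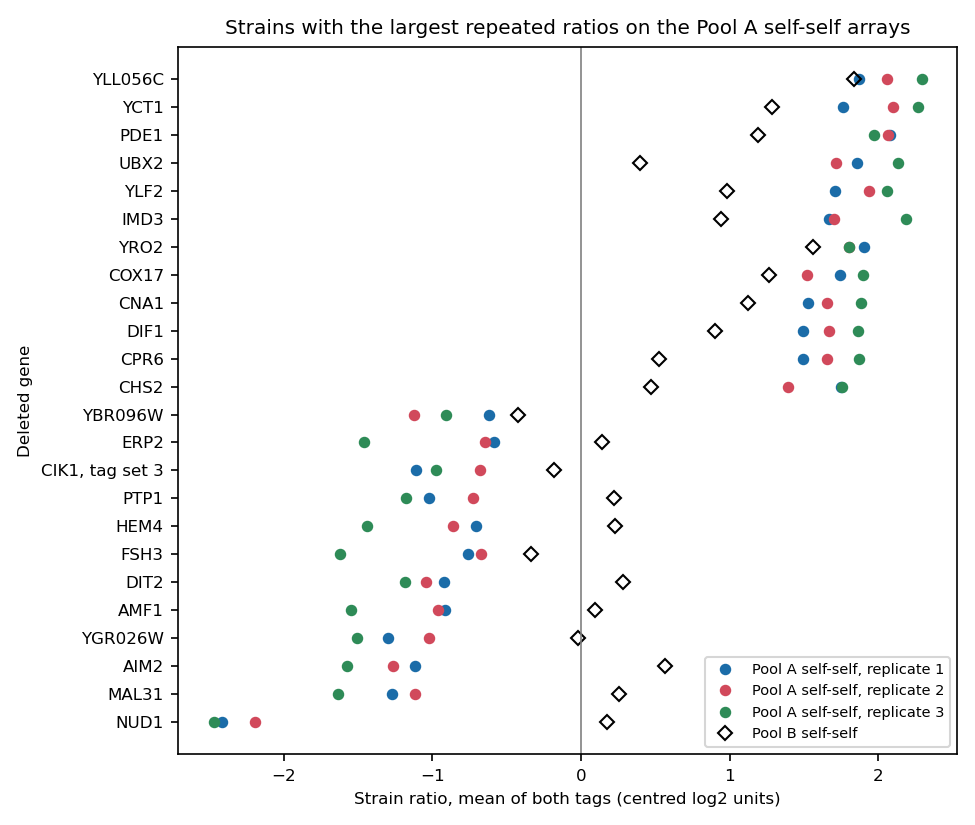
Strain ratios (horizontal axis, centred log2 units, mean of both tags) of the 12 most positive and the 12 most negative strains chosen on the Pool A arrays, with 1 filled circle per Pool A self-self replicate and an open diamond for the Pool B self-self array. The Pool B value of each positive strain is above 0, between 0.40 and 1.84, while those of the negative strains lie between -0.42 and 0.57.

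The positive and the negative group differed on the other arrays, although their ranges overlapped on the Pool B self-self array. On the Pool B self-self array all 12 positive strains were above 0, with a median of 1.05, whereas only 4 of the 12 negative strains were below 0 and their median was 0.16. The difference between the Pool B array and the Pool A mean was called by limma for 9 of the 12 positive strains and for 10 of the 12 negative strains, against 21.9% of all strains (8.54% with Pool B higher, 13.3% with Pool B lower). The strains were chosen for their Pool A values, and the difference rests on 1 Pool B array, which was assumed to vary like the Pool A arrays. On the array of Pool A against Pool B, all 12 positive strains were above 0 (1.53 to 2.54) and all 12 negative strains were below 0 (-2.12 to -0.40). Over all 5444 strains, the Pearson correlations of the 3 Pool A arrays with the Pool B self-self array were 0.30, 0.10 and 0.13, and those with the mixed-pool array were 0.53, 0.41 and 0.56. The titles of the Pool A arrays and the mixed-pool array begin with the same number and that of the Pool B array with another, so pool and this title number cannot be told apart.

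The 2 tags of a strain often carried different ratios. Of all tags, 48.3% were called by limma. In the first tag block 757 tags were called positive (13.9%) and 2252 negative (41.4%), together 55.3%. In the second block 2046 were called positive (37.6%) and 203 negative (3.73%), together 41.3%. The blocks as a whole were displaced: after centring, the median of the first block was -0.18, -0.19 and -0.22 on replicates 1, 2 and 3, and that of the second block 0.09, 0.32 and 0.21. Both tags were called in the same direction for 462 strains, of which 346 were positive and 116 negative. Both were called in opposite directions for 777 strains, and in 767 of these the first tag was negative and the second positive. Only the first tag was called in 1770 strains, only the second in 1010, and neither in 1425. With each block centred on its own median, 720 strains had both tags called in the same direction and 476 in opposite directions, so the larger count changed sides with the centring. The called tags under that centring were 1249 positive and 1598 negative in the first block and 1340 positive and 943 negative in the second. Without replicate 2 the strains with agreeing and with opposite tags numbered 249 and 391, without replicate 3 they numbered 216 and 408, and without replicate 1 those with opposite tags numbered 509. The Pearson correlation of the 2 tags over 5444 strains was 0.09, and on replicates 1, 2 and 3 it was 0.01, 0.11 and 0.18.

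The tag difference itself was called by limma in 3488 strains (64.1%), with the first tag higher in 473 (8.69%) and the second higher in 3015 (55.4%). With separately centred blocks these counts were 1387 and 1605. A called strain ratio therefore often came from 1 tag. Of the 1321 positive strains, 346 had both tags called positive, 314 only the first, 651 only the second and 10 neither. Of the 1122 negative strains, 116 had both tags called negative, 953 only the first, 37 only the second and 16 neither. Both splits were made with the first block displaced downward and the second upward. With separately centred blocks, both tags were called positive in 363 strains and negative in 357. YLL056C and PDE1, both among the most positive strains, differed in whether 1 or both tags were called. The YLL056C strain had a first tag at 3.70, 3.84 and 4.29 and a second tag at 0.05, 0.28 and 0.30. The PDE1 strain had a first tag at 1.68, 1.51 and 1.65 and a second tag at 2.48, 2.62 and 2.29, so both of its tags were high on every array. Among the negative strains, the first tag of NUD1 was at -4.35, -4.20 and -4.83 and its second tag at -0.48, -0.19 and -0.12. The first tag was the one further from 0 in 11 of the 12 most negative strains.

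**Figure D2:**
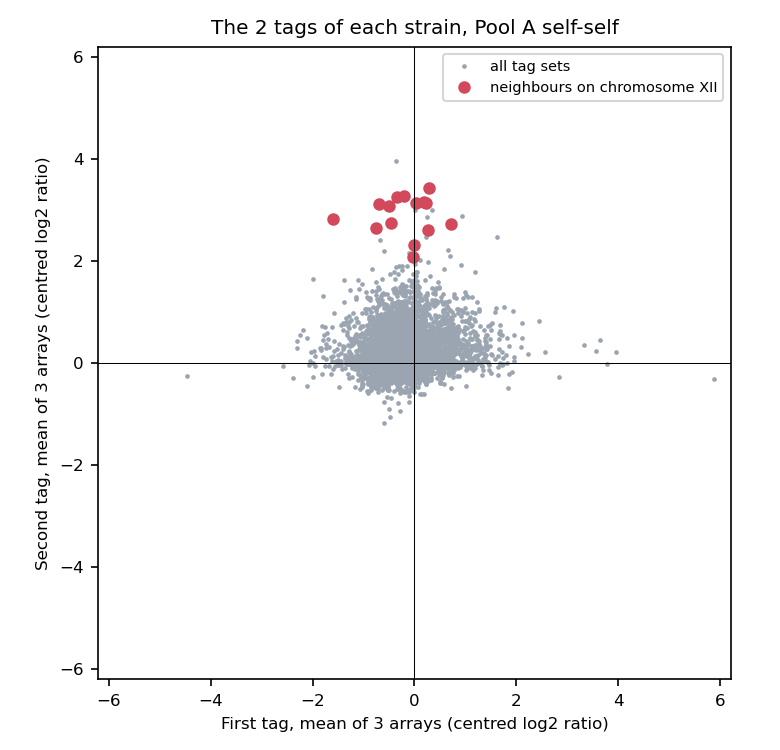
Mean centred log2 ratio over the 3 Pool A self-self arrays of the first tag (horizontal axis) and the second tag (vertical axis) of each of 5444 tag sets, with 15 strains from 3 groups of neighbours on chromosome XII in red. Most points with a large value on 1 axis lie near 0 on the other, with AYT1 (-1.61 and 2.83) and PDE1 (1.61 and 2.46) among the exceptions, and the most extreme first tags reach -4.46 and 5.89 while the second tags run from -1.17 to 3.96.

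The strains with both tags called in opposite directions and the largest smaller tag were NYV1, AYT1, CRC1, TRM44, RPL10 and HMG2. In all 6 the first tag was negative and the second positive. For NYV1, a SNARE protein of vacuole fusion, the first tag gave -2.25, -1.62 and -2.10 and the second 1.67, 2.01 and 1.29. For AYT1, an acetyltransferase gene on chromosome XII, the first tag gave -1.94, -1.07 and -1.81 and the second 2.67, 2.72 and 3.09. The tags did not overlap in either strain, which follows from how these strains were picked. For RPL10, a protein of the large ribosomal subunit, the first tag averaged -1.27 and the second 1.43, and the strain mean was 0.08. The tags also differed in sign for CRC1, the mitochondrial carnitine carrier (first tag -1.39, second tag 1.63, strain mean 0.12). HMG2, an HMG-CoA reductase of sterol synthesis, had a strain mean of -0.10, and TRM44, a tRNA methyltransferase, had -0.24. Of these 6 strains only AYT1 was called as a strain (0.61, adjusted p = 2.78e-05 in limma).

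Tags with a mean of at least 2 in size were few, and they were unevenly placed. The second block had 30 of them, all positive, and 17 of these were on chromosome XII, which holds 460 of the 5444 strains. The first block had 13 positive and 12 negative ones, with 2 of the positive and none of the negative on chromosome XII. On the Pool B self-self array all 30 second-block tags were above 0 and 24 were at 1 or more. Of all tags, 71.0% in the second block and 29.7% in the first block were above 0 on that array. For the first block, 10 of the 13 positive tags were above 0 on that array, but none of the 12 negative tags was at -1 or lower and 5 were below 0. The other tag of the strain reached 1 in the same direction for 1 of the 30 second-block tags, that of PDE1, and for none of the first-block tags.

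Most of the chromosome XII tags lay in 3 runs of neighbouring deletions, which were picked out after their values were seen and so carry no test. In the run from MMM1 to YEH1, 6 of 7 second tags were at 2 or more, with means from 2.32 to 3.12 and Pool B values from 1.95 to 2.99. Its members were MMM1, a subunit of the tether between endoplasmic reticulum and mitochondria, DRS1, an RNA helicase of ribosome assembly, COX17, the phosphatase PSR1, SOF1, which acts in maturation of the small ribosomal subunit, and the steryl ester hydrolase YEH1. The SOF1 second tag gave 2.96, 3.07 and 3.34 on the 3 Pool A arrays and 2.68 on the Pool B array. The exception was LMO1, between MMM1 and DRS1, with 0.27, 0.25 and 0.20 on the Pool A arrays and -0.59 on the Pool B array. The 7 strains have consecutive spot numbers, and their genes lie next to each other on the chromosome. Where the spots lie on the slide was not used here.

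In the run from MMP1 to AYT1 all 3 second tags were at 2 or more. MMP1, a permease for S-methylmethionine, gave 3.10, 3.10 and 3.63, and MHT1, the methyltransferase that uses S-methylmethionine and homocysteine, gave 2.49, 2.71 and 3.02. In the run from CRN1 to DIF1, 6 of 8 second tags were at 2 or more, with means from 2.09 to 3.43. CRN1, the yeast coronin, gave 1.96, 1.98 and 2.33, and IMD3 gave 3.05, 3.32 and 3.91. The 2 exceptions in that run were SEN1, a helicase of transcription termination (0.38, 0.85 and 0.96), and ATG23 of the autophagy pathway (0.90, 0.75 and 1.25). The first tags did not share these ratios: in the 15 strains of the 3 runs the first tag had means from -1.61 to 0.72. Strains just outside the runs were lower, such as PUF3 at 0.79 and LSM3 at 0.18 for the second tag. JLP1 (1.54) and HSU1 (1.85), before MMP1, and SPO75 (1.53), before MMM1, were intermediate.

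**Figure D3:**
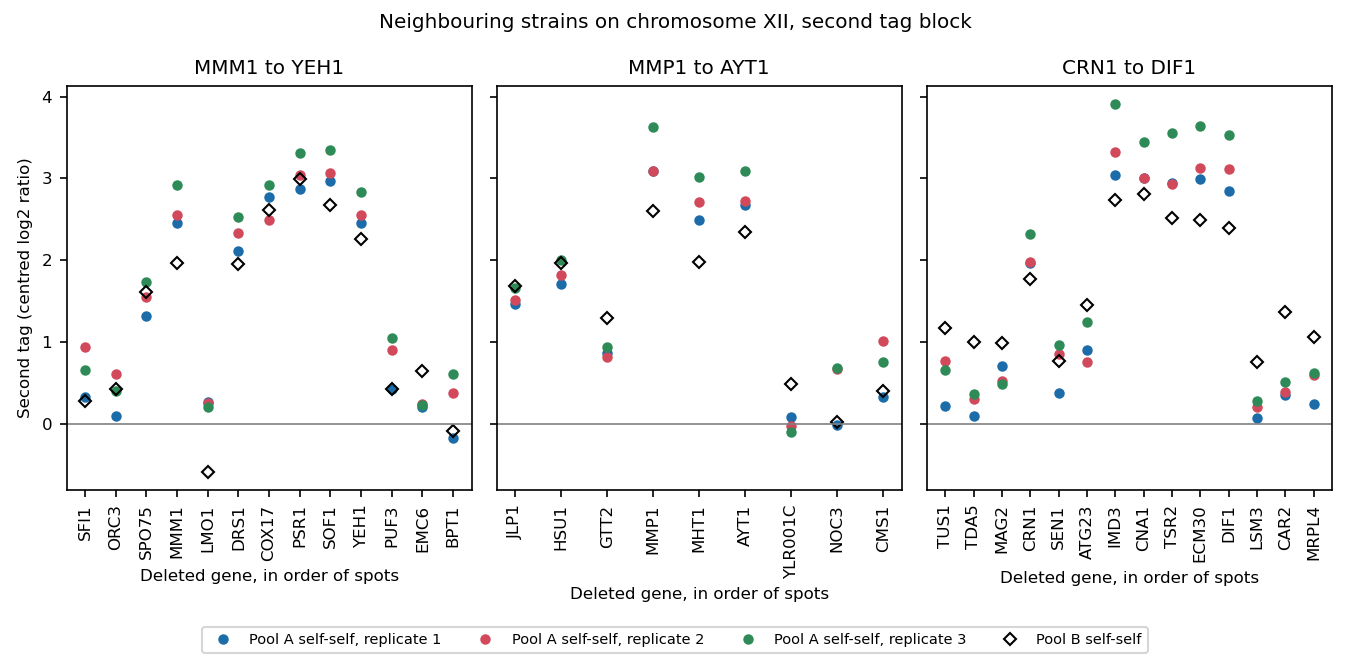
Second-tag ratio (vertical axis, centred log2 units) of strains in 3 runs on chromosome XII and of their flanking strains, in the order of their spots, with filled circles for the 3 Pool A self-self replicates and an open diamond for the Pool B self-self array. Within the runs most tags lie between 2 and 4 on all arrays, while LMO1, SEN1, ATG23 and most flanking strains lie lower, and HSU1 comes nearest at 1.85 on average.

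A second printing gave some tags a value at another place, which here means another spot number and not a known position on the slide. For 781 strains each tag had a single spot among its neighbours and a run of 5 further spots elsewhere in the block, which gave 1562 tags measured at 2 places. The single spots called 791 tags (50.6%) and the runs 835 (53.5%). Both called 674, and the directions were the same in all 674. The Pearson correlation between the places was 0.94 over 1562 tags, which share their PCR and hybridisation. Of 122 single spots with a mean of at least 1 in size, all 122 had the same sign in the run and 86 also reached 1 there. CNA1 and COX17, members of the runs on chromosome XII, were among them. The CNA1 second tag gave 3.06, 3.13 and 3.52 at its single spot and 2.99, 2.97 and 3.43 in its run of 5 spots. The COX17 second tag gave 2.77, 2.81 and 3.23 at its single spot and 2.77, 2.43 and 2.86 in its run. The large ratio of these tags was thus present at both places.

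Median ratios also moved with the spot number. Over bins of 500 spot numbers, the median single-spot ratio of tags with a second printing ran from -0.57 to 0.05 in the first block and from -0.05 to 0.38 in the second. The runs of 5 spots of the same tags had a narrower range, from -0.38 to -0.08 in the first block and from 0.07 to 0.30 in the second. Within a run, the fifth spot exceeded the first by a median of 0.14, 0.43 and 0.64 on replicates 1, 2 and 3 in the first block, and by 0.04, 0.38 and 0.55 in the second. On the Pool B array these differences were 0.04 and 0.00. Spots of a single tag on a single array thus differed by an amount that was smallest on replicate 1 and largest on replicate 3. The median size of a called strain ratio was 0.40, as a mean over 2 tags and 3 arrays. The within-run differences are between single spots of 1 array, so the 2 measures are not alike.

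**Figure D4:**
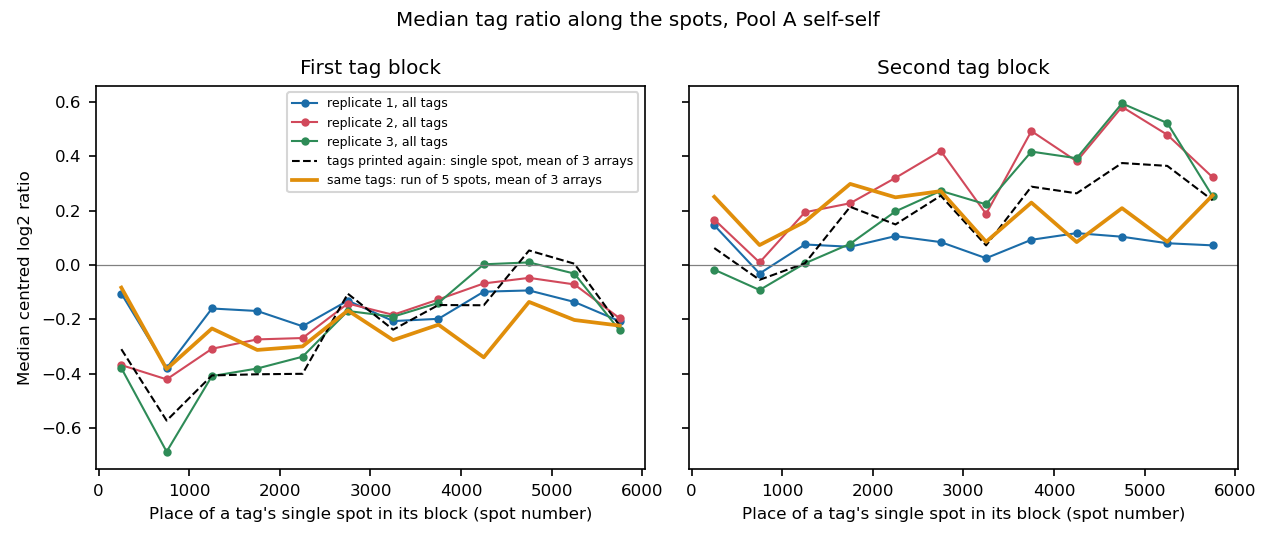
Median centred log2 ratio (vertical axis) of tags in bins of 500 spot numbers along each tag block (horizontal axis, spot number), for the 3 Pool A self-self replicates over all tags and, for tags with a second printing, for their single spots and their runs of 5 spots. In the second block, replicates 2 and 3 reach 0.58 and 0.59 at spot numbers 4501 to 5000 and fall to 0.32 and 0.25 in the last bin. Replicate 1 stays between -0.03 and 0.15 there. The runs of 5 spots do not climb along that block, with 0.25 in the first bin, 0.08 at 4001 to 4500 and 0.26 in the last bin.

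Spots followed the order of the genes, so place and chromosome moved together. Chromosome medians of the strain ratio ran from -0.25 on chromosome I and -0.24 on chromosome III to 0.14 on chromosome XV and 0.19 on chromosome XIV. On chromosome I, 40 of 80 strains were called negative and 7 positive, and on chromosome XIV 18 of 378 were called negative and 156 positive. The replicates differed in this, with chromosome XIV medians of 0.02, 0.27 and 0.31 and chromosome I medians of -0.07, -0.31 and -0.41 on replicates 1, 2 and 3. For strains with a second printing, medians of the 13 chromosomes with at least 20 such strains ran from -0.22 to 0.25 at the single spots and from -0.14 to 0.20 in the runs of 5 spots. The chromosome XIV median was 0.25 at the single spots and 0.05 in the runs over 52 strains, and the chromosome XIII median was 0.08 and -0.06 over 66 strains. The chromosome VIII median was 0.14 and 0.20 over 31 strains, and that of chromosome III was -0.21 and -0.14 over 24. With a running median over the gene order removed, an alternative added after the data were seen, 1531 strains were positive and 1322 negative.

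Families of genes were described by their counts of called strains beside the 24.3% positive and 20.6% negative of all strains. The nuclear pore list had 14 of 29 strains positive and 5 negative, with a median of 0.11 against 0.00 for all strains. It had 8 positive strains without replicate 2, 9 without replicate 3 and 4 without centring, where 16.1%, 16.97% and 7.94% of all strains were positive. Its highest members were NUP2 (0.79, 0.94 and 0.86 on replicates 1, 2 and 3), NUP116 tag set 2 (mean 0.84) and NUP120 (mean 0.83). NUP116 tag set 1 averaged 0.04 and was not called, and the lowest member was NIC96 at -0.57. NUP2 had both tags positive, whereas NUP120 had a first tag at -0.24 and a second at 1.90. The ergosterol list had 7 of 20 positive and 2 negative, with a median of 0.15, and it had 3 positive without replicate 2 and 4 without replicate 3, beside the same 16.1% and 16.97% of all strains. There ERG8, phosphomevalonate kinase, gave 1.06, 1.33 and 1.10, ERG11, lanosterol demethylase, averaged 1.08, and ERG1, squalene epoxidase, averaged -0.76. The cell division cycle list stood on the other side, with 2 of 40 positive, 15 negative and a median of -0.13. The 2 positive members were CDC23, a subunit of the anaphase-promoting complex (0.95, 1.27 and 0.97), and CDC4, an F-box protein (mean 0.95). With the running median over gene order removed, this list had 7 positive and 13 negative strains and a median of 0.00, beside 28.1% positive and 24.3% negative of all strains. Without replicate 3 it had 7 negative strains, beside 10.7% of all strains.

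The larger families divided between both signs. Cytosolic ribosomal proteins had 27 of 138 positive and 26 negative, with a median of 0.01 and a range from -0.73 (RPL35A) to 1.88 (RPL37B tag set 1). The value of RPL37B tag set 1 came from its first tag, at 3.83, 3.53 and 3.97, while its second tag averaged -0.02. RPL37B tag set 2 averaged 0.06 and was not called. Mitochondrial ribosomal proteins had 15 of 69 positive and 10 negative, led by MRPL44 with 0.93, 1.23 and 1.29. The respiratory chain and ATP synthase list had 16 of 59 positive and 10 negative, from CYC7 (-0.83) to COX17 (1.72), and the 2 cytochrome c isoform strains lay apart, since CYC1 averaged 1.14. Amino acid biosynthesis had 22 of 94 positive and 25 negative, from LYS4 (-0.68) to MET22, a bisphosphate nucleotidase (0.90). Vacuolar sorting and V-ATPase genes had 14 of 57 positive and 5 negative. They were led by VPS501 (1.25, 1.28 and 1.62), and VPH1, a membrane subunit of the V-ATPase, averaged 0.87 from a first tag at -0.67 and a second at 2.41.

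The shorter families gave the following counts, beside the same 24.3% positive and 20.6% negative of all strains. The proteasome list had 9 of 35 positive and 10 negative, and its leader RPN9 tag set 2 averaged 1.12 while RPN9 tag set 1 averaged -0.40. The tRNA synthetases had 10 of 34 positive and 8 negative, led by MSE1 of mitochondria (1.21) and HTS1 for histidine (1.20). HTS1 gave 1.18, 1.21 and 1.22, with almost no spread between arrays. RNA polymerase subunits had 6 of 34 positive and 7 negative, from RPA34 (-0.66) to RPO26 (1.03), a subunit shared by the polymerases. RAD genes had 5 of 29 positive and 5 negative, from RAD55 (-0.60) to RAD10, an endonuclease of nucleotide excision repair (0.71). SEC genes had 12 of 36 positive and 8 negative, from SEC15 of the exocyst (-0.64) to SEC21 of the COPI coat (0.82). Peroxisome genes had 9 of 33 positive and 8 negative, and PEX18, which acts in import of peroxisomal proteins, gave 1.27, 1.61 and 1.38. Autophagy genes had 9 of 36 positive and 4 negative, and ATG31 was furthest from 0 at -0.72. Histones and silencing genes had 7 of 29 positive and 7 negative. Kinesins and tubulins had 4 of 14 positive and 5 negative, the lowest being CIK1 tag set 3, while CIK1 tag set 1 averaged 0.01. TFIIH subunits had 2 of 10 positive and 3 negative, and TFB1 gave 1.58, 1.73 and 1.16. Genes without a standard name had 93 of 359 positive and 74 negative, which was 25.9% and 20.6%.

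Within these families the leaders differed in how their tags behaved. TFB1, MRPL44, PEX18, RPO26 and ERG8 were among those with both tags called positive, with first tags averaging 1.19, 1.51, 0.92, 0.99 and 1.26 and second tags 1.79, 0.79, 1.93, 1.08 and 1.06 respectively. With Pool B in both channels, the leaders with both tags called positive ran from -0.56 for MRPL44 to 1.27 for COX17. RPO26, PEX18 and TFB1 gave -0.37, -0.08 and 0.05 there. MSE1 (0.42), ERG8 (0.44), RPN9 tag set 2 (0.45), SEC21 (0.47), NUP2 (0.48), SIR3 tag set 1 (0.57) and MET22 (0.66) lay in between. The leaders with 1 tag called positive covered a like range on that array, from -0.21 for RAD10 and 0.28 for VPS501 to 0.72 for CDC23, 1.61 for RPL37B tag set 1 and 1.84 for YLL056C, so the groups overlapped. SIR3, a silencing protein, had 3 tag sets with means of 0.88, 0.86 and 0.73, and the SD of tag set 1 over the 3 arrays was 0.01. Its first tag rose over the replicates (1.29, 1.44 and 1.48) and its second fell (0.44, 0.33 and 0.30). The SDs of these tags were 0.10 and 0.07, so their opposite changes offset each other in the strain mean. Tag set 3 of SIR3 is a run of 5 spots, as is tag set 3 of CIK1. The tags of CIK1 tag set 3 averaged -1.63 and -0.21 beside -1.57 and -0.06 for CIK1 tag set 2. CIK1 tag set 1 did not share this ratio, with tags averaging -0.15 and 0.17 and a strain mean of 0.01 that was not called. Across the 105 genes with more than 1 tag set, the first 2 sets differed by a median of 0.43 in the first block and 0.32 in the second. Neighbouring tag sets, which mostly belong to different genes, differed by a median of 0.40 and 0.29.

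The strains with the largest spread over the 3 arrays were EDE1, FSH3 and RAM1. For EDE1, an endocytic scaffold protein, the strain values were -0.09, -0.33 and -1.14. For FSH3 they were -0.76, -0.67 and -1.62, and for RAM1, a subunit of protein farnesyltransferase, -0.25, -0.51 and -1.23. In all 3 strains replicate 3 was the lowest and stood apart from the other 2 replicates. The first tag accounted for it in EDE1 and FSH3, with -2.08 and -2.85 on replicate 3, while their second tags stayed between -0.40 and 0.14. All 3 strains were called negative by limma, with adjusted p = 0.00192 for EDE1, 4.69e-07 for FSH3 and 0.000126 for RAM1. Their SDs were 0.55, 0.53 and 0.51, and the test drew each toward a prior SD of 0.17 taken from all strains. These p-values thus reflect the spread of these 3 strains only in part.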

How the data were processed

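The authors deposited 1 log2 ratio of the 2 channels per spot and array. The base follows from the values, since powers of 2 gave ratios with 3 decimals in 100% of the spots tested. For scanner, background treatment and normalization, the method is not given in the sources used here. Gene names came from the platform annotation and a gene table of assembly R64, which lacked 4 of 5325 genes. Tag sequences were not used here. The median of the named spots was subtracted from each array, spots of a tag were averaged (9302 tags rest on 1 spot, 24 on 5 and 1562 on 6), and a strain was the mean of its 2 tags. In R 4.3.3, limma 3.58.1 (lmFit, then contrasts.fit and eBayes) was run on all 5 arrays in 3 groups, so only the Pool A arrays gave residual spread. Tests were two-sided with Benjamini-Hochberg adjustment over all strains or tags, at 0.05, and were tested on simulated data. Named strains were the 12 most positive and 12 most negative called strains with both tags and all arrays of the mean's sign, 6 with the largest opposite tags, 3 with the largest SD, and the member of each of 19 gene lists furthest from 0. Other strains were named after their values were seen. Members and lists were chosen with earlier results of these data known. Alternatives were 13 planned and 1 added. The number of arrays limits the precision, and spot intensities were not used here.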

Additional observations from a re-analysis of the deposited data

Results flagged for a closer look

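In 33 of the 48 named strains the self-self array of Pool B differed from the Pool A mean by limma's test, against 21.9% of all strains. The difference is Pool B minus Pool A in centred log2 units, and in each strain it brought the Pool B value toward or past 0, except AYT1. Among the most positive strains it was -0.76 for YCT1, -0.85 for PDE1, -1.51 for UBX2, -0.92 for YLF2, -0.91 for IMD3, -0.56 for CNA1, -0.78 for DIF1, -1.15 for CPR6 and -1.17 for CHS2. Among the most negative strains it was 2.53 for NUD1, 1.60 for MAL31, 1.89 for AIM2, 1.26 for YGR026W, 1.23 for AMF1, 1.33 for DIT2, 1.24 for HEM4, 1.20 for PTP1, 0.74 for CIK1 set 3 and 1.04 for ERP2. Among strains with opposite tags or a large spread it was 0.64 for NYV1, 0.69 for AYT1, 1.01 for EDE1 and 0.73 for RAM1. Among the leaders of gene families it was -1.71 for MRPL44, -0.67 for RPN9 set 2, -0.80 for MSE1, -1.40 for RPO26, -0.92 for RAD10, -1.11 for VPS501, -1.50 for PEX18, 0.69 for ATG31, -0.72 for ERG8 and -1.44 for TFB1. These strains were chosen for large values on the Pool A arrays, and there was 1 Pool B array.

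A signal also appeared in spots without a gene name, which no comparison used. The last 321 spots, numbers 22255 to 22575, had medians of 7.19, 6.83 and 7.36 on replicates 1, 2 and 3 of Pool A self-self, and of 7.88 on the mixed-pool array. On the Pool B self-self array their median was -1.99. The 312 unnamed spots just before them had medians of 0.27, -0.03 and 0.01 on the Pool A arrays.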

How the results depend on the processing

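No paired analysis was possible because the comparison was with 0 and the groups share only replicate number 1. Without centring, 432 strains were positive and 402 negative, 1202 tags were positive, and both tags agreed in 102 strains and opposed each other in 199. With the Pool B array as a further self-self array these counts were 423, 334, 1235, 73 and 253, and the tags differed in 2286 strains, with the first higher in 96. With blocks centred separately, both tags agreed in 720 strains and opposed each other in 476, and the first tag was higher in 1387 and the second in 1605. With the running median over gene order removed, both tags agreed in 706, the first tag was higher in 1400 and the second in 1551. Leaving out each replicate in turn gave 877 to 1544 positive and 585 to 991 negative strains, 216 to 363 with agreeing tags and 391 to 509 with opposite tags. Centring on all spots, scaling, quantile normalization, spot medians, the noise filter, robust moderation and the fit on Pool A arrays alone kept the counts of called strains and tags, of agreeing and opposite tags and of tag differences within 1.5 times. Smaller counts moved further: proteasome negatives went from 10 to 6 with centring on all spots, vacuolar negatives from 5 to 8 with quantile normalization, and RAD positives from 5 to 8 with the noise filter. Strains with a positive first and a negative second tag went from 10 to 18 with quantile normalization and 16 with the noise filter. Named strain values changed sign for CRC1 (-0.13 to 0.34 over the left-out replicates, -0.0503 with gene order removed), RPL10 (-0.0696 to 0.22) and HMG2 (-0.25 to 0.0212), none of which was called. The Pool B difference changed sign without centring for FSH3 (-0.013), YBR096W (-0.23), NYV1 (-0.0579), AYT1 (-0.00123), TRM44 (-0.15), RPL10 (-0.63) and ATG31 (-0.000633). It also did so with quantile normalization for YLL056C (0.32) and YRO2 (0.10), with gene order removed for CRC1 (0.0607) and MET22 (0.0382), and on leaving out a replicate for CRC1 (-0.37 to 0.10) and RPL10 (-0.0735 to 0.21). The cause was not tested.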

Other observations

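The strain with the highest mean on the Pool A self-self arrays was outside the naming rule because its tags had opposite signs, and it was chosen after its values were seen. MAG1, which encodes a DNA glycosylase that removes alkylated bases, had a first tag at 5.55, 5.17 and 6.94 on replicates 1, 2 and 3 and a second tag at -0.25, -0.27 and -0.40. Its first tag was at 8.45 on the mixed-pool array and at -0.67 on the Pool B self-self array. It held the 1 spot above 5 on average among 18794 named spots.

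ALG6, which encodes a glucosyltransferase of protein glycosylation, had the highest second tag, at 3.53, 3.97 and 4.38, with 3.28 on the Pool B array and 4.80 on the mixed-pool array. Its first tag averaged -0.36. ISW2, a chromatin remodelling ATPase, had a first tag at 3.03, 2.56 and 2.91, with 2.30 on the Pool B array, and a second tag averaging -0.28. Both were chosen after their values were seen.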
